A study of Mus musculus with 8 samples.

Results

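The genes described here serve the cornified envelope, the tough protein shell of dead skin cells: 3 transglutaminases (Tgm1, Tgm3, Tgm5), 2 plakins (Evpl, Ppl), 2 proteases (Casp14, Asprv1) and 2 peptidylarginine deiminases (Padi1, Padi3). They were taken from the table by gene symbol and make up 9 of its 18770 genes. As an epidermal keratinocyte moves towards the skin surface, transglutaminases weld proteins such as loricrin, involucrin and the small proline-rich proteins to each other under the plasma membrane. Envoplakin and periplakin form an early scaffold at the membrane and at desmosomes. Caspase-14 and the retroviral-like protease Asprv1 take part in the cutting of filaggrin and its precursor, and deiminases turn arginines of filaggrin, keratins and trichohyalin into citrulline. Hair follicles use some of the same enzymes to harden the inner root sheath and the hair shaft.

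Messenger RNA was sequenced from dorsal skin of male wildtype C57BL/6 mice (C57BL/6J in the methods) aged 7 to 8 weeks. The hair was plucked, and from 24 h later each skin area received once a day either 20 µl of 65% ethanol (vehicle control, VC) or the same volume with 3 mg/ml alpinetin, a plant flavonoid (AP). At day 4 (D4), RNA was made from skin stripped of the epidermis between its follicles, so that dermis and follicles were kept, in 4 mice per group. The libraries carry a group name and a number (VC.1, AP.1 and so on); these names could not be matched to single mice. The question is how the genes of envelope assembly stood in AP against VC.

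The values are normalized counts, that is, reads of a gene divided by a size factor of its library. Reads counted on genes ranged from 6454563 to 7264151 in VC and from 8507783 to 11190113 in AP. Mitochondrially encoded genes took 48.4% ± 5.81 of the reads in VC and 8.66% ± 2.63 in AP (SD, n = 4), so the median of reads left for all other genes was 3534620 in VC and 8974690 in AP. Shares of mitochondrial reads did not overlap between the groups (exact 2-sided permutation test, p = 0.0286, the smallest that 4 against 4 allows). Their part in the results below was not tested.

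Of the 9 genes, 6 were called higher in AP than in VC by limma at a Benjamini-Hochberg adjusted p under 0.05, where 1011 of 15964 genes tested (6.33%) were. They were Tgm1, Tgm3, Evpl, Ppl, Casp14 and Asprv1. No member was called lower by limma, DESeq2 or edgeR, where limma called 639 of all genes (4%) lower at the adjusted p under 0.05. At an unadjusted p under 0.05, 7 members were higher and 0 were lower. The share of all genes at that threshold is not given here, for the members or for the lists below. In 5 of the 9, all but Ppl among those called, the 4 AP libraries all lay above the 4 VC libraries, as they did for 1641 of the genes tested (10.3%). The median log2 fold change of the 9 was 1.59, beside 0.06 for all genes tested. With the thresholds of the study's methods (p under 0.01 before adjustment, over 1.5-fold) the same 6 were higher, beside 1319 genes (8.26%). All 9 passed the filter on low values, 8 of them in the 4 VC libraries alone. Without AP.3, and likewise without AP.4, Tgm3 alone was called, as it was when limma ran without its intensity trend. Log2 fold changes of the 5 other called members were then 1.13 to 1.93 without AP.3 and 0.97 to 2.10 without AP.4, against 1.27 to 2.29 with all libraries. Calls fell over all genes too, to 211 higher without AP.3, 257 without AP.4 and 376 without the intensity trend. Scaling by total counts instead of size factors moved the median of all genes to a log2 fold change of 0.90, gave 8657 genes higher and 70 lower, and called all 9 members higher, whose median stood 1.45 above that of all genes, against 1.53 in the main comparison. Total counts without the mitochondrial genes gave a median of 0.10, 958 genes higher and 540 lower, and 6 members called.

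**Figure D1:**
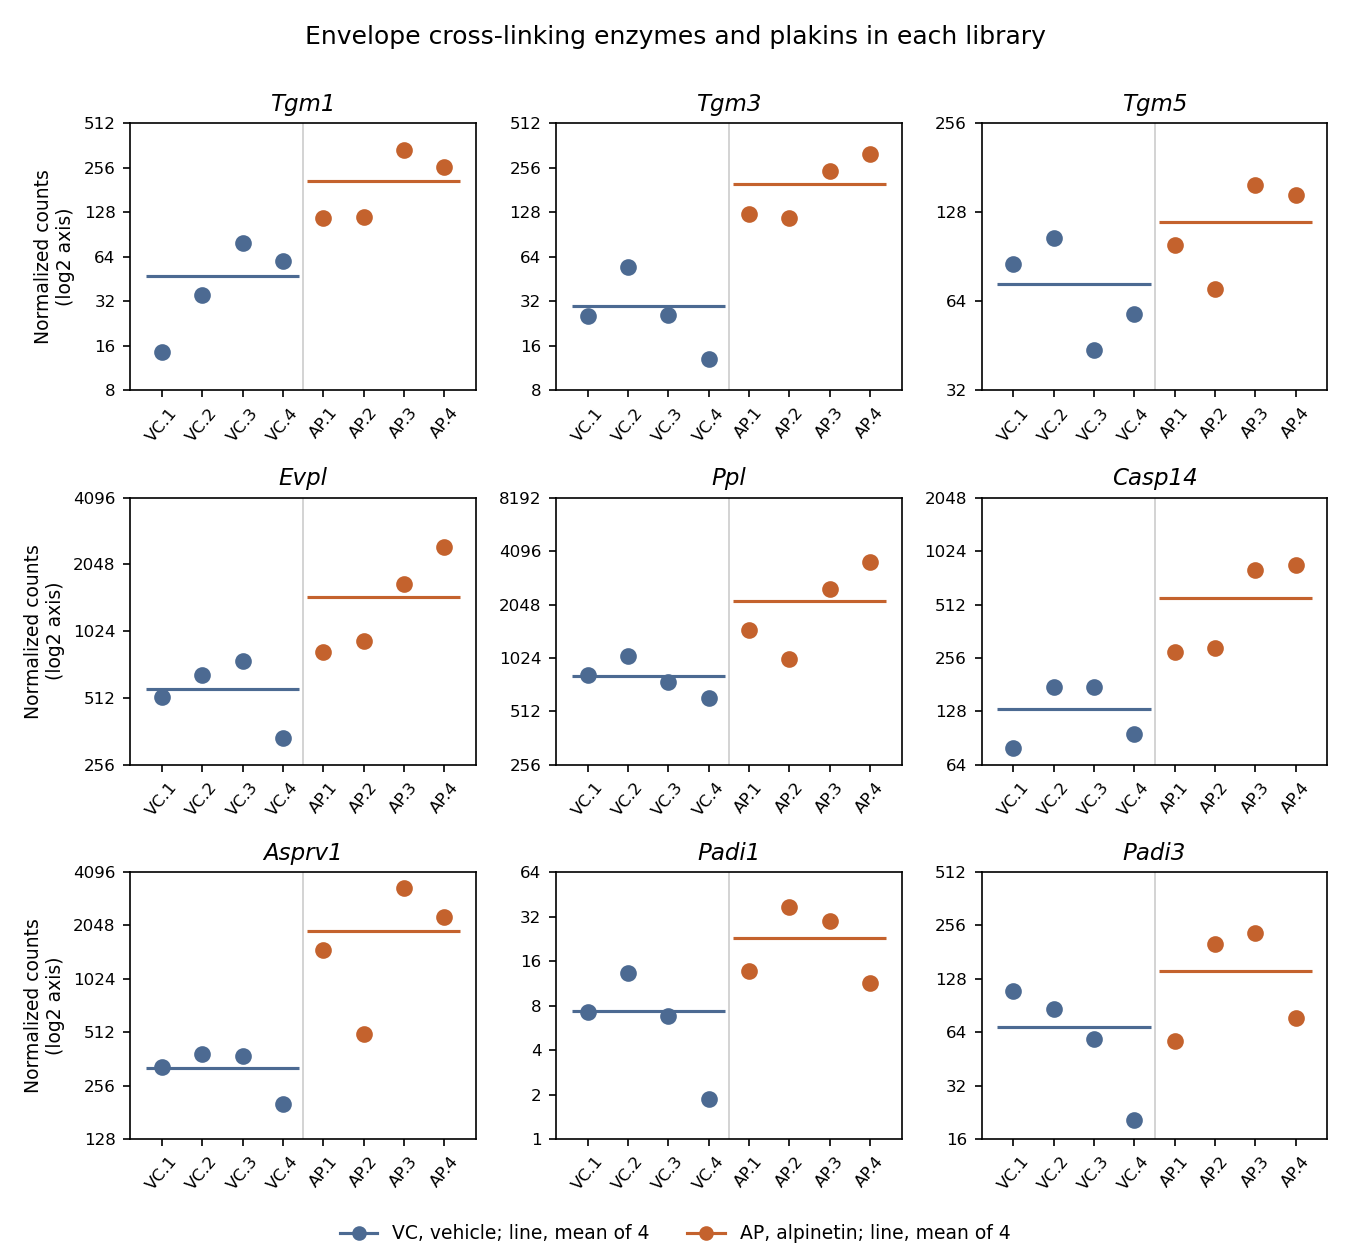
Normalized counts of the 9 genes in each library, on log2 axes that differ between panels. Points are libraries and lines are means of 4; the AP points of Tgm1, Tgm3, Evpl, Casp14 and Asprv1 all lie above the VC points, and those of Tgm5, Ppl, Padi1 and Padi3 do not.

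Among the transglutaminases, Tgm1 and Tgm3 rose and Tgm5 was not called, except with total counts as the scaling. Tgm1 is the membrane-bound enzyme of the upper epidermis that also attaches lipids to the envelope. In the order VC.1 to VC.4, which all lists of values keep, it had 14.6, 35.5, 79.2 and 60.0 normalized counts, and in AP.1 to AP.4 it had 117, 119, 335 and 259. All AP libraries exceeded all VC libraries, AP.3 and AP.4 were high, and VC.1 was the lowest. Its log2 fold change was 2.20 (SE 0.51; 95% confidence interval 1.08 to 3.32; limma, Benjamini-Hochberg adjusted p = 0.0253). The limma adjusted p was 0.0859 without AP.3 and 0.0772 without AP.4, and the adjusted p of Tgm1, with DESeq2 and edgeR included, lay between 5.10e-04 (DESeq2) and 0.0859 in all alternatives. Tgm1 shares 182 exon bases with Gm49067, a gene on the opposite strand, and the sources used here do not state whether reads were counted by strand. Gm49067 had 0, 1.48, 6.83 and 0 normalized counts in VC and 5.80, 14.0, 43.8 and 48.6 in AP, well under Tgm1 in every library but in the same 2 high AP libraries.

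Tgm3 is made as a zymogen in epidermis and hair follicle and is activated by cleavage. It stood at 25.5, 54.7, 25.9 and 13.1 normalized counts in VC and at 124, 117, 244 and 315 in AP. Every AP library was above the highest VC library, VC.2, and AP.3 and AP.4 were again the high ones. Tgm3 had the largest log2 fold change of the 9 members, 2.75 (SE 0.45; interval 1.77 to 3.73; limma adjusted p = 0.00896). It stayed called with each library left out in turn, with a log2 fold change between 2.43 and 3.09 and a limma adjusted p of at most 0.0357. Tgm5, an epidermal transglutaminase that acts on several envelope proteins, had 85.5, 105, 43.7 and 58.1 normalized counts in VC and 99.4, 70.6, 158 and 146 in AP. AP.3 and AP.4 lay above all VC libraries, whereas AP.1 and AP.2 lay within their range. The log2 fold change of Tgm5, 0.70 (SE 0.35), had an interval from -0.06 to 1.46 (a fold change of 0.96 to 2.74) and a limma adjusted p of 0.196.

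Both plakins rose. Evpl encodes envoplakin, which pairs with periplakin in the first layer of the envelope. Its normalized counts were 517, 647, 755 and 338 in VC and 823, 927, 1664 and 2453 in AP. The groups did not overlap, although AP.1 exceeded VC.3 by less than the VC libraries differed among themselves. Ppl, which encodes periplakin, had 824, 1046, 754 and 611 normalized counts in VC and 1474, 1015, 2518 and 3538 in AP. Here AP.2 fell just below VC.2, and the 3 other AP libraries lay above all VC libraries. The log2 fold changes were 1.30 for Evpl (SE 0.35; interval 0.54 to 2.05; limma adjusted p = 0.0384) and 1.27 for Ppl (SE 0.33; interval 0.53 to 2.0; limma adjusted p = 0.0372).

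Of the 6 calls, those of the plakins changed most often with the processing. The limma adjusted p of Evpl was 0.0808 without VC.1, 0.0505 without VC.2, 0.0788 without VC.4, 0.0536 without AP.2, 0.112 without AP.3 and 0.0927 without AP.4, with log2 fold changes of 1.27, 1.38, 1.07, 1.47, 1.19 and 1.0 in the same order. For Ppl it was 0.0729 without VC.1, 0.0662 without VC.3, 0.0781 without VC.4, 0.112 without AP.3 and 0.0892 without AP.4, with log2 fold changes of 1.28, 1.24, 1.14, 1.13 and 0.97. Both are long transcripts, of 6384 and 6217 bases in the annotation, and across all genes the log2 fold change rose with transcript length (Spearman rho 0.24 across genes, which are not independent replicates). With that trend removed in each library, the log2 fold change was 0.95 for Evpl (limma adjusted p = 0.105) and 0.93 for Ppl (limma adjusted p = 0.118). In the alternatives as a whole, the adjusted p lay between 0.00146 and 0.112 for Evpl and between 0.00103 and 0.118 for Ppl.

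Both proteases rose. Casp14 encodes caspase-14, a caspase of cornifying cells that is not used for apoptosis. It had 80.0, 176, 176 and 95.6 normalized counts in VC and 278, 291, 801 and 856 in AP. AP.3 and AP.4 were nearly alike and far above AP.1 and AP.2, which in turn were above every VC library. The log2 fold change of Casp14 was 1.96 (SE 0.41; interval 1.06 to 2.86; limma adjusted p = 0.0186). Without AP.3 the limma adjusted p was 0.0633 and without AP.4 it was 0.0551. With DESeq2 and edgeR included, the adjusted p of Casp14 lay between 8.18e-05 (DESeq2) and 0.0633 in all alternatives.

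Asprv1, a gene of 1 exon whose product cuts the linkers of profilaggrin, had 327, 389, 378 and 203 normalized counts in VC. In AP it had 1488, 500.4, 3325 and 2299. The VC libraries lay close together, while AP.2 was only a little above them and AP.3 was 6.64 times AP.2, the widest ratio of highest to lowest AP library among the 9. The log2 fold change of Asprv1 was 2.29 (SE 0.47; interval 1.26 to 3.33; limma adjusted p = 0.0175). The limma adjusted p was 0.0504 without AP.3 and 0.0540 without AP.4, and the adjusted p of Asprv1, with DESeq2 and edgeR included, lay between 2.34e-06 (DESeq2) and 0.0577 (limma without its intensity trend) in all alternatives.

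Neither deiminase was called, except with total counts as the scaling. Padi3, the deiminase of hair follicle and upper epidermis that acts on trichohyalin and filaggrin, had 109, 87.2, 58.7 and 20.6 normalized counts in VC and 57.3, 201, 233 and 77.2 in AP. AP.2 and AP.3 lay above all VC libraries, and AP.1 and AP.4 within the VC range. Its log2 fold change was 1.03 (SE 0.56), with an interval from -0.20 to 2.25 and a limma adjusted p of 0.239. With each library left out in turn, the log2 fold change of Padi3 ranged from 0.54 without VC.4 to 1.38 without AP.1. Padi1, an epidermal deiminase, was the scarcest of the 9, with 7.28, 13.3, 6.83 and 1.88 normalized counts in VC and 13.8, 37.2, 29.9 and 11.4 in AP. Again AP.2 and AP.3 were the high libraries, and AP.4 lay below VC.2. These values came from as few as 1 read in VC.4, under the 3 reads (5.63 normalized counts there) taken as the floor. Its log2 fold change was 1.59 (SE 0.62; interval 0.22 to 2.95), with an unadjusted p of 0.0262 and a limma adjusted p of 0.115. Padi1 is uncertain for another reason: 1200 of its exon bases overlap Gm13032 on the opposite strand, and 30.3% of its 50-base stretches also occur in other transcripts.

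**Figure D2:**
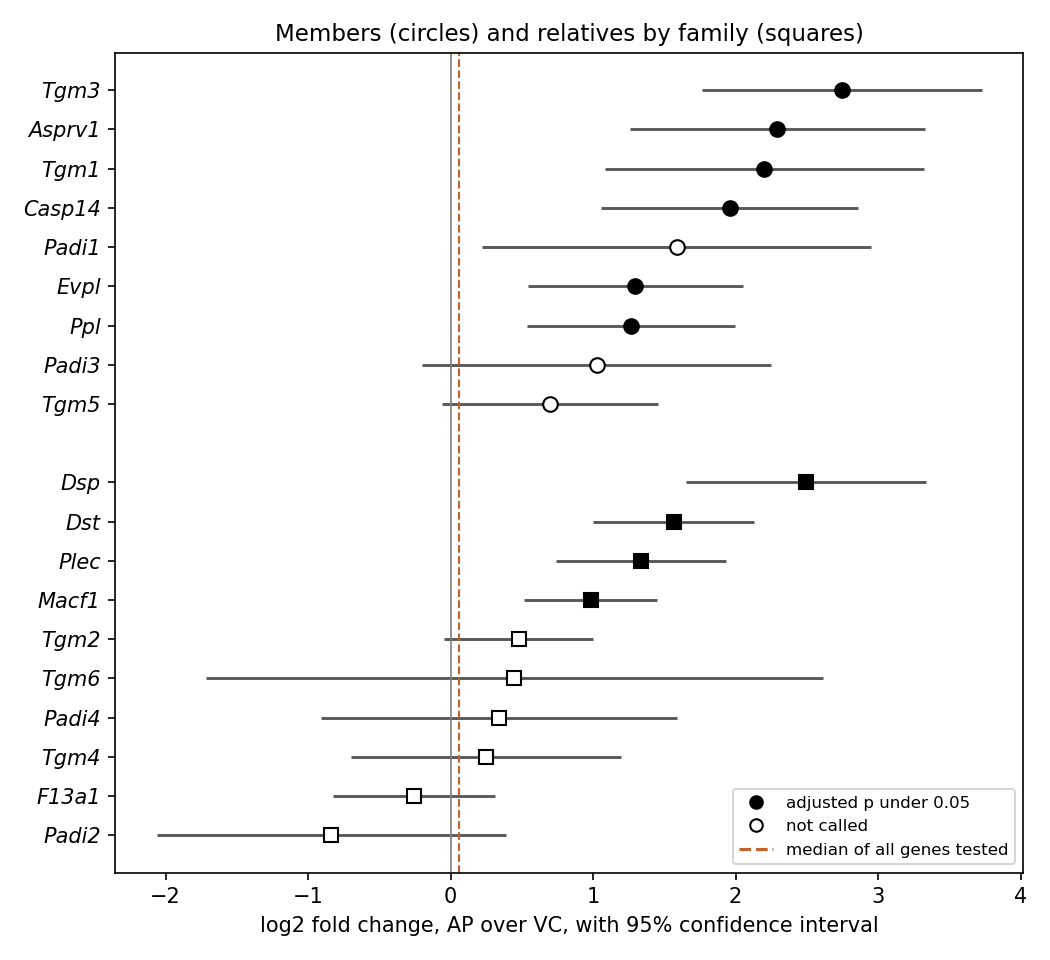
Log2 fold changes of AP over VC (points) with 95% confidence intervals (lines) for the 9 members and for 10 tested relatives of their families. Filled points have a limma adjusted p under 0.05; among the members they run from 1.27 for Ppl to 2.75 for Tgm3, and the dashed line marks the median of all genes tested, 0.06.

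Levels of different genes were compared per kilobase of the longest annotated transcript. In VC, Asprv1 led with 210 ± 55.2 normalized counts per kilobase (SD, n = 4), followed by Ppl (130.1 ± 29.2), Evpl (88.4 ± 28.2) and Casp14 (56.5 ± 22.0). Tgm5 (28.0 ± 10.5), Padi3 (20.8 ± 11.6), Tgm1 (16.6 ± 9.90) and Tgm3 (7.21 ± 4.26) came next, and Padi1 was last at 1.95 ± 1.25. Each gene's range over the VC libraries overlapped that of its neighbour in this order. In AP, Asprv1 (1230 ± 775) and Ppl (344 ± 181) were again the most abundant per kilobase, ahead of Casp14 (238 ± 135) and Evpl (229.7 ± 118). Tgm1 followed at 72.8 ± 37.8 per kilobase, then Tgm3 (48.4 ± 23.3), Tgm5 (45.3 ± 15.6), Padi3 (42.9 ± 26.5) and Padi1 (6.15 ± 3.33). Between neighbours in AP, only the steps from Evpl to Tgm1 and from Padi3 to Padi1 separated every library. Among the 3 member transglutaminases, Tgm5 was the most abundant per kilobase in VC and the least abundant in AP, where it lay close to Tgm3.

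The members did not share a single pattern among the AP libraries. Tgm1, Tgm3, Tgm5, Evpl, Ppl, Casp14 and Asprv1 were each highest in AP.3 or AP.4 and lower in AP.2 than in AP.4, by 1.04 (Tgm5) to 2.20 (Asprv1) on the log2 scale. Padi1 and Padi3 were the other way round, higher in AP.2 than in AP.4 by 1.62 and 1.37. The median log2 difference of AP.2 minus AP.4 was -1.70 for 10 markers of suprabasal epidermis and 1.07 for 8 of the inner root sheath. Krt10 was the most abundant of the first list and Krt71 of the second. No marker of either was at 0 in all VC libraries. Within the inner root sheath list, Gata3 went the other way (-0.61). Other lists split too: the median was 2.91 for hair shaft, 0.93 for fibroblast, 0.25 for sebaceous gland and 0.20 for leukocyte markers. It was -0.40 for skeletal muscle and -1.22 for basal keratinocyte markers. Which cell type a member followed was not tested. In VC, 6 of the 9 members (Tgm3, Evpl, Ppl, Asprv1, Padi1 and Padi3) were lowest in VC.4, as were the summed levels of the suprabasal, basal and inner root sheath markers.

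**Figure D3:**
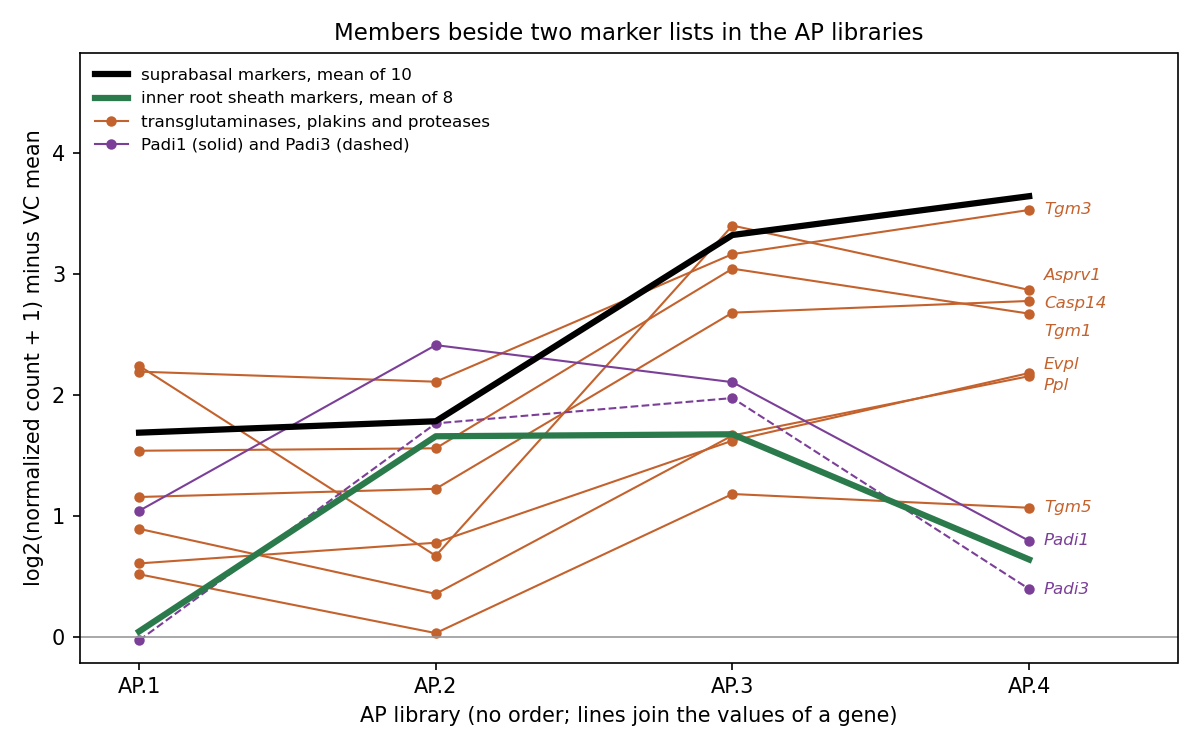
For each AP library (horizontal axis, in no order), log2(normalized count + 1) minus the VC mean, for the 9 members (thin lines) and the means of 2 marker lists (thick lines). The 7 transglutaminases, plakins and proteases are highest in AP.3 or AP.4, and Padi1 and Padi3 are highest in AP.2 or AP.3.

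Since the epidermis between follicles was to be removed, markers of the cell types that could carry these transcripts were read beside them. All 10 suprabasal markers had reads in VC, where Krt10 had 1302 to 4085 normalized counts. Krt2 was the scarcest there, with 5, 8, 2 and 0 reads, under the floor of 3 reads in VC.3 and VC.4. Whether the 10 markers came from epidermis between follicles or from the follicles was not tested. Their summed level was 6425, 13819, 9099 and 6401 normalized counts in VC and 39865, 43594, 116549 and 170627 in AP, and 7 of the 10 were called higher. Their median log2 fold change was 2.81, but they differed widely, from 0.12 for Calml3 and 0.91 for Sbsn, which were not called, to 3.95 for Krt77. The summed level of the 9 members was 1990, 2554, 2278 and 1401 normalized counts in VC and 4476, 3279, 9307 and 9953 in AP. In bulk tissue, a change in the number of cells of a type and a change in RNA per cell cannot be told apart.

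Other cell types were uneven too. Inner root sheath markers summed to 6978, 5338, 7126 and 1929 normalized counts in VC and 3736, 13504, 15439 and 5735 in AP (1 of 8 called higher, Krt72, which reached the filter through AP libraries). Basal keratinocyte markers, of which 3 of 5 were called higher and Krt14 was the most abundant, summed to 23048, 76900, 45841 and 21375 in VC and 47897, 51509, 92112 and 136014 in AP. Skeletal muscle markers, led by Acta1 and none of 6 called, summed to 38140, 56213, 28460 and 30525 in VC and 50305, 7281, 4338 and 9573 in AP, so AP.1 was like the VC libraries. Without AP.1 the same number of members, 6, was called. The muscle sums of the groups do not overlap once AP.1 is left out, so this count cannot show the part of muscle, which was not tested. Hair shaft markers (8 of 10 tested, 0 called, Krt35 the most abundant, Krt34 at 0 in VC) summed to 409 to 1477 normalized counts in VC and 453 to 1506 in AP. Krt35, with a log2 fold change of -0.60 (SE 0.38), makes up most of the VC sums; the 7 others tested were above 0, and the median of the 8 was 2.19, or 1.28 for the 3 that reached the filter on low values in the 4 VC libraries alone. Fibroblast markers (0 of 6 called, Col1a1 the most abundant) summed to 76169 to 214350 in VC and 94665 to 248493 in AP. Sebaceous gland markers (0 of 6 called, Scd1 the most abundant) summed to 14612 to 44528 in VC and 15541 to 28372 in AP, and leukocyte markers (1 of 6 called, Cd207, with Adgre1 the most abundant) to 780.3 to 1935 and 735 to 1024. The part of cell type in the members' values was not tested.

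Relatives of the members by family were read as well, and their difference from the members was not tested. Of 14 listed, 10 were tested and 4 were called higher (6 with total counts as the scaling, 2 with the length trend removed and 2 without the intensity trend, where calls over all genes were 8657, 580 and 376 higher), all 4 of them plakins, while the 6 tested transglutaminase and deiminase relatives were not called. Dsp, whose product desmoplakin anchors keratin filaments to desmosomes, had 1868, 3309, 2276 and 1208 normalized counts in VC and 6535, 8179, 16334 and 19681 in AP. Its AP libraries were all above its VC libraries, with AP.3 and AP.4 high as for Evpl and Ppl, and its log2 fold change was 2.49 (SE 0.38; limma adjusted p = 0.00843). Dst, Plec and Macf1, plakins that link keratin to hemidesmosomes or microtubules to actin, had log2 fold changes of 1.56 (SE 0.26; limma adjusted p = 0.00896), 1.33 (SE 0.27; limma adjusted p = 0.0173) and 0.98 (SE 0.21; limma adjusted p = 0.0209). Plec stood at 2571 to 3158 normalized counts in all AP libraries, without the split between AP.2 and AP.4 seen in Evpl and Ppl. The 4 called relatives are also the longest: 9.59 kilobases for Dsp, 15.5 for Plec, 23.3 for Dst and 23.5 for Macf1. The 6 tested relatives that were not called have 2.79 to 4.77 kilobases, so family and transcript length go together here. Eppk1 was not analysed here.

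The proteins that the members cross-link or process were read as lists. Of 29 tested genes for envelope substrates, 13 were called higher and 0 lower by limma (0 lower at an unadjusted p under 0.05, and 0 by DESeq2 and edgeR), with a median log2 fold change of 2.78. Some of these genes passed the filter on low values through AP libraries: 20 of the 29 reached it in the 4 VC libraries alone, with 11 called higher (not Sprr2h and Lce1m) and a median of 2.37. Loricrin (Lor), a major substrate of transglutaminases, had 555, 399, 692 and 266 normalized counts in VC and 5695, 416, 10478 and 6788 in AP. AP.2 lay within the VC range, the same library in which Asprv1 and Ppl were lowest. The log2 fold change of Lor was 3.0 (SE 0.80; limma adjusted p = 0.0386). Trichohyalin (Tchh), a substrate of Padi3 and Tgm3 in the inner root sheath, had 366, 265, 247 and 99.4 normalized counts in VC and 709, 4478, 4193 and 1223 in AP. It was highest in AP.2 and AP.3, as Padi1 and Padi3 were, and its log2 fold change was 3.18 (SE 0.57; limma adjusted p = 0.0113). Flg (filaggrin) and Scel (sciellin) had log2 fold changes of 3.22 (SE 0.60; limma adjusted p = 0.0130) and 1.78 (SE 0.33; limma adjusted p = 0.0130), and both were highest in AP.3 or AP.4.

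Of 15 tested genes of filaggrin processing other than the members, 7 were called higher and 0 lower by limma, with a median log2 fold change of 0.97. The 4 most abundant were cathepsins D and L (Ctsd, -0.31, SE 0.18; Ctsl, -0.12, SE 0.26), the protease inhibitor cystatin M/E (Cst6, 1.83, SE 0.21, limma adjusted p = 0.00231) and calpain 1 (Capn1, 0.54, SE 0.19), given as log2 fold changes; of these Cst6 was called. Of 10 genes for the lipids that coat the envelope, 6 were called higher and 0 lower by limma, with a median log2 fold change of 1.57. Among the 4 most abundant, the lipid transporter Abca12 and the enzyme Ugcg were called, with log2 fold changes of 2.74 (SE 0.46; limma adjusted p = 0.00904) and 0.87 (SE 0.22; limma adjusted p = 0.0344), while Elovl4 (0.31, SE 0.43) and Abhd5 (0.14, SE 0.23) were not. In both lists 0 genes were lower at an unadjusted p under 0.05, and 0 were called lower by DESeq2 or edgeR. In the 4 VC libraries alone, 14 genes of filaggrin processing reached the filter, with 6 called higher (not Klk5) and a median of 0.76, as did 8 lipid genes, with 4 called higher (not Alox12b and Sdr9c7) and a median of 0.93. Called genes of all these lists fell below these counts when AP.3 or AP.4 was left out, to 5 of the envelope substrates, 3 of filaggrin processing, 2 of the lipid enzymes and 2 of the family relatives.

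Genes were then ranked by how closely their deviations from the group means followed the mean deviation of the 8 members with a mean of at least 50 normalized counts, over the 8 libraries and 11249 other genes. The 8 closest were Ccar1 (Pearson r = 0.994), Cdh1 (0.989), Chl1 (0.987), Top2b (0.978), Dsg1a (0.978), Pkp3 (0.977), Pigo (0.977) and Cd109 (0.977). The mean deviation of the members that they follow was -0.10, 0.44, 0.19 and -0.52 in the VC libraries and -0.55, -0.63, 0.65 and 0.52 in the AP libraries, on the log2 scale. Because group means are taken out, likeness here is within groups and says nothing of the difference between them. Cdh1 (log2 fold change 1.20), Chl1 (2.06), Dsg1a (2.70) and Cd109 (1.26) were called higher. Ccar1 (-0.08, SE 0.18), Top2b (0.52, SE 0.20), Pkp3 (0.84, SE 0.29) and Pigo (0.12, SE 0.22) were not called. The 8 points share the depth and the cell makeup of their libraries, so r is given as a description without a test.

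The 9 genes lie on 7 chromosomes of the mm10 assembly (GENCODE M21). Padi3 (chr4:140785365-140810648) and Padi1 (chr4:140812983-140845778) are neighbours on the minus strand, 2334 bases apart. Tgm5 (chr2:121046111-121085841, minus strand) and Tgm3 (chr2:130012349-130050399, plus strand) share a chromosome. Tgm1 is at chr14:55700009-55713926, Casp14 at chr10:78711991-78718294, Evpl at chr11:116220559-116238077 and Ppl at chr16:5086291-5132421, all on the minus strand, and Asprv1 is at chr6:86628164-86629710 on the plus strand.

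RefSeq promoters (build GRCm38.p6; 250 bases before to 50 after the start of transcription) were matched for 7 of the 9 members, with 8 promoters, 2 of them of Tgm1. They were searched on both strands for 4 motifs. CACCC was in 7 of the 8, and in 57.5% of all 32851 promoters of that length. TATAAA was in 1 of 8, that of Tgm3 (13.6% of all promoters), and TGANTCA (7.81%) and AACCGGTT (0.15%) were in 0 of 8. The Tgm5 promoter held none of the 4. A match is a match of letters and not a measured binding site. The promoters of Tgm3, Asprv1 and Casp14, the called members with a single matched promoter, and that of Padi3, which was not called, are shown 5′ to 3′ on the gene's strand, with motif matches in capitals (CACCC or its reverse complement GGGTG, and TATAAA). In the Tgm3 promoter (chr2:130012090-130012389, plus strand) TATAAA begins at position -28 from the start. The Asprv1 promoter (chr6:86627924-86628223, plus strand) and the Casp14 promoter (chr10:78718244-78718543, minus strand) each hold 3 matches of GGGTG, and the Padi3 promoter (chr4:140810599-140810898, minus strand) holds 2.
Tgm3: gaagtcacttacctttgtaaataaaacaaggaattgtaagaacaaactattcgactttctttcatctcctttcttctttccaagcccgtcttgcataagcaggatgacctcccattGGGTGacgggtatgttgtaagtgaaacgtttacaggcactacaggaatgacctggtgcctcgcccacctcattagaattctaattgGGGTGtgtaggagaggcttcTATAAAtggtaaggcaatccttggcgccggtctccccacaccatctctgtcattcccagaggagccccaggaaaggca
Asprv1: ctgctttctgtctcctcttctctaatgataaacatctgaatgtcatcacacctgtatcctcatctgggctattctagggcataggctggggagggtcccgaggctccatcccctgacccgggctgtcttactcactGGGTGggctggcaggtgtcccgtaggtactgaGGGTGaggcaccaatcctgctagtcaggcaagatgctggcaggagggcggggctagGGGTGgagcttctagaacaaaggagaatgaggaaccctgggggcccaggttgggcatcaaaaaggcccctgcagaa
Casp14: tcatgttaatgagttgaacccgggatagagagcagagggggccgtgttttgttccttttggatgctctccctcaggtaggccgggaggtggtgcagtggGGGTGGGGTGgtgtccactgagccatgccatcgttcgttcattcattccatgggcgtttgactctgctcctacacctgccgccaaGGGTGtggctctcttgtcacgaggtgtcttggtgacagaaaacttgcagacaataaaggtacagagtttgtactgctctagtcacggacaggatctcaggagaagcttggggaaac
Padi3: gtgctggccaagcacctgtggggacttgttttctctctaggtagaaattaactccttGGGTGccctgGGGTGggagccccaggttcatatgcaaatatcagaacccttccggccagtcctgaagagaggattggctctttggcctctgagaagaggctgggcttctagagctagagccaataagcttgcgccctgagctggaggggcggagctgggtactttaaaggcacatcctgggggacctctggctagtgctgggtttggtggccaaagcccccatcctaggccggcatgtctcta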

How the data were processed

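Messenger RNA of 4 VC and 4 AP libraries was analysed from the table as deposited. The submitters' processing notes name STAR, HTSeq, DESeq2 and mm10, whereas the methods name featureCounts for counting; strand use and tool versions are not given in the sources used here. The deposited signal values are gene counts that the authors divided by 1 DESeq2 size factor per library: all 150160 values were whole multiples of a step (tolerance 0.01 read), so reads were recovered. Columns with the authors' own comparison (fold change, statistic, p-values) were not used. A gene at 3 reads or fewer was taken as at the floor, which is 4.10 to 5.63 normalized counts in VC and 1.49 to 2.18 in AP and covers counting error only.

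The comparison was limma's linear model (limma 3.58.1, R 4.3.3) on log2(value + 1), moderated by empirical Bayes with an intensity trend. The 15964 genes that reached 3 normalized counts in 4 or more of the 8 libraries were tested, and p-values were adjusted by Benjamini and Hochberg over all of them. Fold changes are on this scale, which understates those of low genes. P-values measure the spread between mice, and the 4 libraries of a group were not tied to single mice. Alternatives were DESeq2 1.42.0 and edgeR 4.0.16 (quasi-likelihood, TMM) on recovered reads, pseudocounts of 0.5 and 5, no filter, a mean of at least 10, scaling by total counts (also without mitochondrial genes) or upper quartile, reads thinned to 3080758, a loess length trend (span 0.3) removed, no intensity trend, the methods' criteria, and each library left out. The steps were tested on counts simulated with the same dispersion for all genes and without the mitochondrial difference between the groups. Whether they suit the spread of these data was not tested.

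Members and lists were chosen with earlier results of these data known. All members are named. In each pathway list every gene is counted and the 4 with the highest mean normalized count are named, plus called relatives. For likeness, genes with a mean of at least 50 were ranked by Pearson correlation, and the top 8 are named. Genes outside these rules (single markers, overlapping genes, called genes low in VC) were named after their values were seen. One gene first listed with the lipid enzymes is not reported here and was taken out of that list's counts and median after they were seen. Listed genes not analysed here were Eppk1, Sprr2b, Sprr3, Ctsv and Krt85. GENCODE M21 gave coordinates and lengths. All 18770 gene identifiers matched it.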

Additional observations from a re-analysis of the deposited data

Results flagged for a closer look

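The mean log2 level of the 8 inner root sheath markers in VC.4 lay apart from the other VC libraries: its gap to the nearest of them was 0.834 of the group's range, above the critical value of 0.829 for 4 libraries. Of the members, 6 of 9 were also lowest in VC.4, as were the summed levels of the suprabasal and basal markers. This was 1 value of 30 groups of libraries examined, and chance sets apart about 1 group in 20. No single member passed this limit in either group.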

How the results depend on the processing

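All 9 members kept a fold change above 0 in all alternatives (4 of the 21, no filter, a mean of at least 10, no intensity trend and the methods' criteria, leave the fold change as it is), and 0 genes of the members or of the pathway lists were called lower in any. Without the intensity trend, 1 member, 2 family relatives, 6 envelope substrates, 4 genes of filaggrin processing and 2 lipid enzymes were called higher, against 6, 4, 13, 7 and 6 in the main comparison; over all genes 376 were higher and 216 lower, against 1011 and 639. With total counts these were 9 members, 6 relatives, 23 substrates, 12 of filaggrin processing and 9 lipid enzymes. Total counts also gave 9 members with all AP libraries above all VC libraries, against 5 in the main comparison. The median log2 fold change of the members was then 2.35, against 1.59. This scaling shifts all genes by construction: 8657 of 15964 were called higher and the median of all was 0.90. The share of all genes without overlap between the groups under total counts is not given here. Removing the length trend left 2 relatives called, and 580 genes higher and 531 lower over all genes. With each library left out in turn, counts called higher ranged from 1 to 6 for the members, 2 to 4 for the relatives, 5 to 18 for the substrates, 3 to 7 for filaggrin processing and 2 to 6 for the lipid enzymes; the lowest came without AP.3 or AP.4. Over all genes, limma called 211 higher and 96 lower without AP.3, 257 and 147 without AP.4 and 385 and 155 without AP.2. Without AP.1 it called 1061 and 812, and without VC.1 to VC.4 it called 584, 988, 1009 and 729 higher and 255, 501, 522 and 467 lower. DESeq2 called 1677 higher and 1362 lower. The cause of the change without the intensity trend was not tested. Padi1 had 1 read in VC.4; with thinned reads its log2 fold change was 1.52, against 1.59. The members of a list are not independent, and no list was tested as a set.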
